A study of Mus musculus with 24 samples.

Results

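The 43 genes described here encode the machinery that copies DNA and the cyclins, kinases, E2F factors and inhibitors that decide when a cell passes from G1 into S phase. They were taken by name from a list. The rule uses no measured value, though the list was drawn up with earlier results of these data known. Where the count table held several transcripts of a gene, the most abundant one on average stood for it. All 43 were found among the 25160 genes of the table, and all 43 passed the filter on low counts that left 12213 genes for testing. By role, 10 license origins, 4 turn the loaded helicase on, 12 synthesize DNA, 5 supply nucleotides or remove uracil, 3 act on chromatin behind the fork, 7 are cyclins, their kinases or E2F factors, and 2 are kinase inhibitors.

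Before S phase, the origin recognition complex, CDC6 and CDT1 load the ring-shaped MCM helicase onto DNA, a step called licensing. Cyclin D with CDK4 and cyclin E with CDK2 then phosphorylate the retinoblastoma protein, which releases E2F factors to transcribe many of the genes listed here, and CDC45, the GINS complex and MCM10 start the helicase. The inhibitors p21 and p27 hold these kinases back, and macrophages that are activated by bacterial products are known to leave the cycle in G1.

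RNA was sequenced from RAW 264.7 cells, a mouse macrophage line, in 24 libraries. Each library came from 1 of 2 stable derivatives in which doxycycline switches on either the nuclear receptor Nur77 or, as control, green fluorescent protein (GFP). All 6 groups, controls included, had 18 h of doxycycline at 50 ng/ml and then lipopolysaccharide (LPS, a ligand of Toll-like receptor 4) at 500 ng/ml for 0, 1 or 5 h, with 4 libraries a group. The study asked how Nur77 shapes the inflammatory response of macrophages. Each construct was carried by a single stable line, so the construct and the line that carries it cannot be told apart, and no label states that replicates were separate cultures. The p-values here therefore rest on library-to-library spread that may be technical.

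Library totals over genes ran from 8134143 to 29275847 counts. The 8 macrophage markers examined, among them Csf1r, Cd68 and Lyz2, were each at 1 CPM or more (counts scaled to a library total of 1e+06), while 5 epithelial markers were at 0 and the summed fibroblast and lymphocyte markers stayed below 1 CPM in each library. The 6 neutrophil markers summed to 1.07 to 4.64 CPM, with 1 gene at 1 CPM or more in each group. The summed macrophage markers were at 4923 to 6263 CPM in the Nur77-labelled line and at 9334 to 10720 CPM in the GFP-labelled line, with no overlap. Single markers went both ways. Of the 8, 4 were called lower in the Nur77-labelled line (edgeR, adjusted p under 0.05) at each time, and 0, 2 and 1 higher at 0, 1 and 5 h. Of all genes tested, 19.7%, 24.8% and 24.4% were lower and 20.2%, 26.5% and 21.9% higher. Counts of Nr4a1, the gene of Nur77, did not separate the lines at 0 h. They were 2.74 to 3.71 CPM in the Nur77-labelled line and 2.53 to 3.39 CPM in the GFP-labelled line. At 1 h the Nur77-labelled libraries, at 9.29 to 42.4 CPM, were below the GFP-labelled ones, at 52.0 to 66.8 CPM, and at 5 h they were above, at 4.52 to 5.20 against 2.15 to 3.16 CPM. The lines are therefore named by their labels throughout. Replicate 2 of the Nur77-labelled line at 1 h stood apart: 40 of the 43 genes were below the mean of the other 3 libraries of its group, by a median of -0.35 on the log2 scale, against 0.001 over all genes tested. In the same library Nr4a1 was at 9.29 CPM, against 39.8 to 42.4 CPM in the other 3. Counts of called genes are given with and without this library where it moves them, while fold changes of single genes include it unless stated.

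E2F factors bind short sites, and promoters of replication genes are known for them, so the sites are shown first. RefSeq promoter windows of GRCm38.p6, from 250 bases before to 50 after a gene's start, were found for 37 of the 43 genes, 44 windows in all, and searched on both strands for TTTCCCGC, TTTGGCGC, TTTCGCGC and TTTGCCGC, which can overlap one another. The letters occurred in 15 of the 44 windows (34.1%), against 2.26% of 32851 windows of the same length in the genome. By gene, 15 of 37 (40.5%) held them, against 2.6% of 27025 genes. Both backgrounds include genes that were not tested here. Among tested genes outside the 43, 460 held the letters and 9222 did not, a larger share than that of all genes. CCAAT was present in 54.5% of the members' windows and 37.4% of all windows, and the letters TTTGAA or TTCGAA, written for the cell cycle element CHR, in 13.6% and 19.2%. The sites shown are those of Cdc6, E2f2, Cdt1, Pole2 and Mcm6, whose fall after LPS differed between the lines, and of Mcm5 and Cdk2, which were higher in one line at 0 h. Each is written 5′ to 3′ on the gene's strand, the match is in capitals, and its position counts from the gene's start in the RefSeq window.
Cdc6, chr11:98908001-98908030, plus strand, position -138: ggccggtggagaGCGGGAAAtcgcctgggg
E2f2, chr4:136172301-136172323, plus strand, position 40: ggcggcatatagTTTGGCGCtaa
Cdt1, chr8:122568035-122568064, plus strand, position 33: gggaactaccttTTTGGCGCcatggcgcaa
Pole2, chr12:69228163-69228192, minus strand, position 11: gcgtcggcggtgGCGCCAAAtcgcgaacat
Mcm6, chr1:128359735-128359764, minus strand, position -47: tgattggacgggTTTGGCGCgaagtagctc
Mcm6, chr1:128359798-128359827, minus strand, position -110: atggcgtatgctTTTGGCGCgaaaagtgcg
Mcm5, chr8:75109344-75109373, plus strand, position -153: agcgccaagaacTTTCGCGCcaaaacgtcc
Cdk2, chr10:128705174-128705203, minus strand, position -140: aaaccaggaactGCGGGAAAgttgtgcagc
The second Mcm6 site and the Mcm5 site each overlap a further match that starts 4 bases downstream and reads on the other strand. A match describes the letters of a window and is no evidence of binding.

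After 5 h of LPS nearly the whole replication program was lower in both lines. In the GFP-labelled line 41 of the 43 genes fell and 1, Cdkn1a, rose, where 31.9% of the 12213 genes tested fell and 30.6% rose (62.6% called in all). In the Nur77-labelled line 42 fell and 1, again Cdkn1a, rose, where 34.1% of all genes fell and 32.5% rose (66.6% called). The median log2 fold change of the 43 was -0.94 and -1.16, against -0.02 and -0.03 over all genes. All calls are from edgeR's quasi-likelihood test with Benjamini-Hochberg adjustment over the 12213 genes, at an adjusted p under 0.05. A fall of at least 1 on the log2 scale was seen for 20 of the 43 in the GFP-labelled line and 27 in the Nur77-labelled line, against 7.95% and 10.4% of all genes. Whether a culture held fewer cycling cells or each cell held less of these RNAs cannot be told apart in bulk samples.

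**Figure D1:**
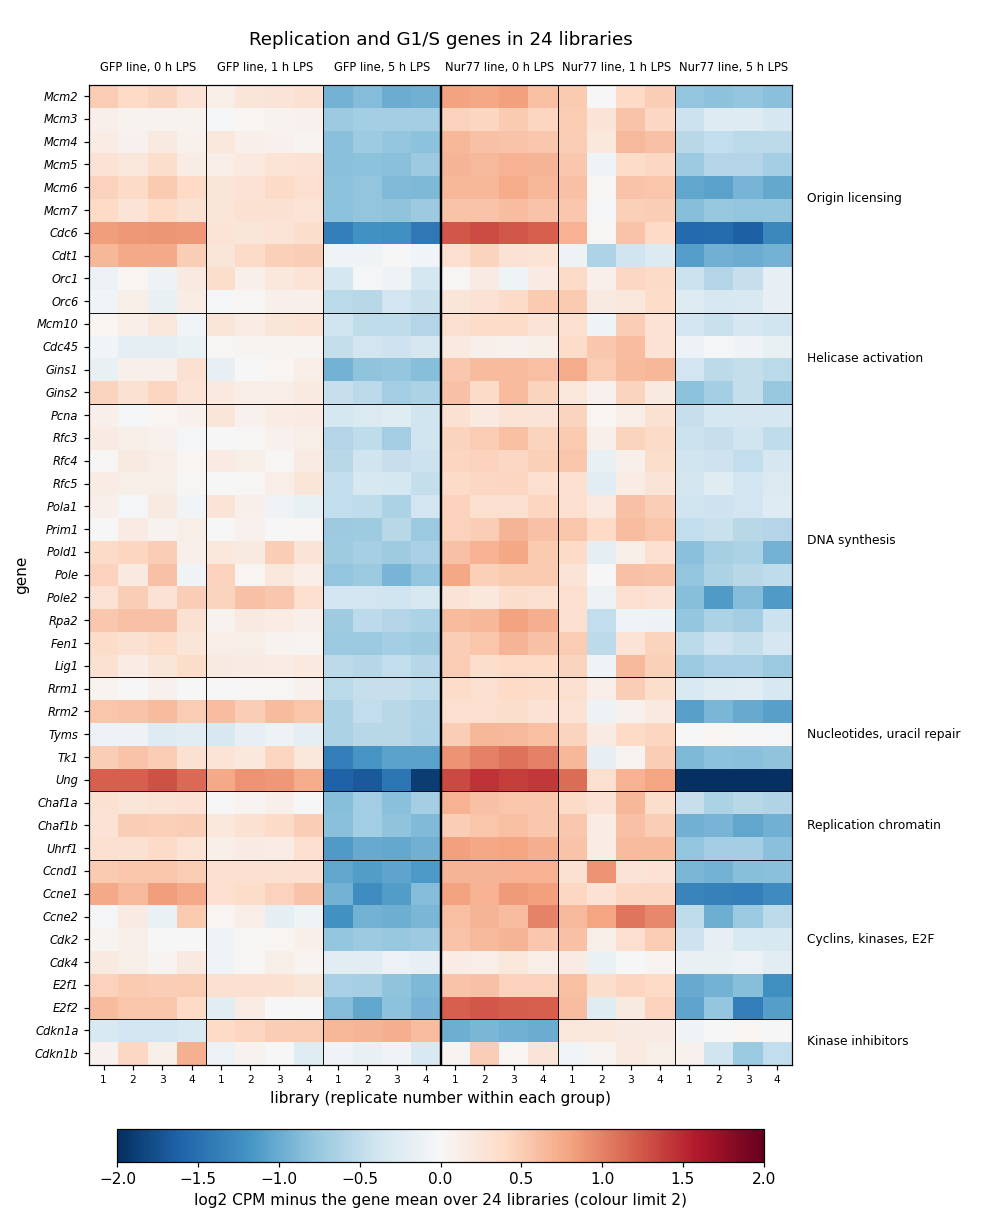
Each tile shows the log2 CPM of 1 gene in 1 library minus that gene's mean over the 24 libraries, with genes in rows grouped by role and libraries in columns grouped by line and hours of LPS. Values at 5 h lie below those at 0 h on average in both lines for 42 of 43 rows, Cdkn1a being the exception, and replicate 2 of the Nur77-labelled line at 1 h is below the mean of its 3 neighbours for 40 of 43 genes.

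Among licensing factors the loader Cdc6 (chr11:98907709-98923942) changed most. In the GFP-labelled line it stood at 31.7, 32.6, 33.00 and 32.6 CPM at 0 h, 21.6, 21.2, 21.7 and 22.7 at 1 h and 6.93, 7.70, 7.60 and 6.61 at 5 h. The Nur77-labelled line held 42.1, 44.3, 42.2 and 40.9 CPM at 0 h, 28.9, 18.2, 26.6 and 23.5 at 1 h and 6.10, 6.12, 5.79 and 7.29 at 5 h. No 5 h library of either line reached any 1 h or 0 h library of the same line. The log2 fold change at 5 h was -2.16 (SE 0.10, edgeR adjusted p = 9.5e-16) in the GFP-labelled line and -2.75 (SE 0.11, edgeR adjusted p = 1.66e-17) in the Nur77-labelled line. Cdt1, the partner of Cdc6 in loading the helicase, fell by 0.73 and by 1.34 on the log2 scale. The 6 subunits of the MCM helicase fell together, from -0.77 for Mcm3 to -1.35 for Mcm2 in the GFP-labelled line and from -0.78 for Mcm3 to -1.70 for Mcm6 in the Nur77-labelled line. The origin recognition subunits moved least of the role. Orc6 was at -0.50 and -0.62, while Orc1 was at -0.19 in the GFP-labelled line, which did not pass the test (edgeR adjusted p = 0.114), and at -0.48 in the Nur77-labelled line.

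The factors that start the helicase fell less evenly. Gins1 and Gins2, subunits of the GINS complex, were at -0.95 and -0.94 in the GFP-labelled line and at -1.08 and -1.20 in the Nur77-labelled line, and Mcm10 at -0.58 and -0.72. Cdc45, which binds the helicase with GINS, had the smallest fall of all genes called, -0.26 (edgeR adjusted p = 0.000792) and -0.22 (edgeR adjusted p = 0.00323). Of the exon bases of Gins2, over all its annotated transcripts, 67.3% are shared with Gse1 on the opposite strand. Strand use in counting is not given in the sources used here, so counts of Gins2 may include reads of Gse1. Exon bases are likewise shared with a gene on the opposite strand for 78.8% of Fen1 (with Gm10143), 52.5% of Chaf1a (with Ubxn6) and 23.4% of Ccnd1 (with LTO1). For Cdk4 (with Tspan31) and Ccne2 (with Ints8) the shares are 19.7% and 17.4%.

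All 12 genes of DNA synthesis fell in both lines, with medians of -0.77 and -1.05. The catalytic subunits of the leading and lagging strand polymerases, Pole and Pold1, were at -1.12 and -1.04 in the GFP-labelled line and -1.20 and -1.41 in the Nur77-labelled line. Rpa2, a subunit of the single-strand binding protein, was at -1.12 and -1.35, the flap nuclease gene Fen1 at -1.04 and -1.02, and the ligase gene Lig1 at -0.81 and -1.11. Smaller falls were seen for the clamp Pcna, -0.37 and -0.63, and for its loader subunits Rfc3, Rfc4 and Rfc5, -0.51 to -0.62 and -0.71 to -0.95. The primase and polymerase alpha genes Prim1 and Pola1 were at -0.77 and -0.55, then -1.08 and -0.75. Pole2, the second subunit of polymerase epsilon, was at -0.77 and -1.26.

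The steepest fall of the 43 was that of Ung (chr5:114130366-114139321), whose product uracil-DNA glycosylase removes uracil from new DNA. In the GFP-labelled line its CPM were 19.6, 19.6, 20.7 and 18.8 at 0 h, 14.4, 15.98, 15.7 and 14.3 at 1 h and 2.79, 2.67, 3.14 and 2.30 at 5 h. Those of the Nur77-labelled line were 21.4, 23.4, 22.2 and 22.9 at 0 h, 18.6, 10.7, 13.8 and 14.8 at 1 h and 1.24, 1.87, 1.93 and 1.28 at 5 h. At 5 h each library of the Nur77-labelled line was below each of the GFP-labelled line, and both were far below their own 0 h libraries. These 5 h levels rest on 31 to 69 counts a library in the GFP-labelled line and 14 to 33 in the Nur77-labelled line. The log2 fold change was -2.83 (SE 0.14, edgeR adjusted p = 1.56e-15) and -3.86 (SE 0.16, edgeR adjusted p = 3.79e-17).

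Next among the nucleotide genes was Tk1 (chr11:117815519-117826087), which encodes the salvage enzyme thymidine kinase. Its GFP-labelled libraries held 52.1, 54.9, 53.03 and 46.1 CPM at 0 h and 14.2, 16.4, 17.7 and 17.7 at 5 h. The Nur77-labelled libraries held 69.3, 74.5, 78.5 and 74.4 CPM at 0 h, 58.8, 33.1, 38.5 and 52.5 at 1 h and 19.8, 21.1, 20.9 and 21.3 at 5 h. The 0 h and 5 h groups did not overlap in either line, and the changes were -1.64 and -1.84 (edgeR adjusted p = 1.67e-11 and 1.66e-12). The ribonucleotide reductase subunits, which make deoxynucleotides, fell unequally, Rrm2 by 1.13 and 1.35 and Rrm1 by 0.54 and 0.64 on the log2 scale. Tyms, the thymidylate synthase gene, had the smallest fall of this role, -0.41 and -0.60. The chromatin genes fell together: Uhrf1, which reads hemimethylated DNA, was at -1.36 and -1.52, and the histone chaperone subunits Chaf1a and Chaf1b were at -1.05 and -1.24, then -1.16 and -1.52.

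All 7 cyclin, kinase and E2F genes fell as well. Ccne1, cyclin E1 (chr7:38097984-38107490), stood at 43.9, 40.7, 46.4 and 44.1 CPM at 0 h and 13.6, 10.99, 12.1 and 14.3 at 5 h in the GFP-labelled line. The Nur77-labelled libraries held 45.5, 42.4, 46.7 and 45.9 CPM at 0 h and 10.5, 10.2, 10.1 and 10.8 at 5 h. The groups did not overlap, with changes of -1.79 (edgeR adjusted p = 8.8e-17) and -2.12 (edgeR adjusted p = 6.78e-18). E2f2 (chr4:136172274-136196057), an activating E2F, was at 21.9, 20.8, 20.7 and 18.6 CPM at 0 h, 12.2, 15.7, 13.9 and 14.2 at 1 h and 7.71, 6.85, 8.01 and 7.42 at 5 h in the GFP-labelled line. In the Nur77-labelled line it began higher, at 32.3, 33.4, 32.7 and 32.4, and passed through 21.6, 11.9, 15.9 and 19.4 to 6.82, 8.28, 5.42 and 6.56. Its 5 h levels overlapped between the lines although its 0 h levels did not. The changes were -1.45 (SE 0.13, edgeR adjusted p = 5.92e-10) and -2.27 (SE 0.14, edgeR adjusted p = 1.34e-13).

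Other genes of the role ranged widely. Ccnd1, cyclin D1, was at -1.62 and -1.57, E2f1 at -1.24 and -1.51, and Ccne2, cyclin E2, at -1.16 and -1.40 in the GFP-labelled and Nur77-labelled lines. The kinase genes, set beside their cyclins without a test, had smaller changes: Cdk2 was at -0.78 and -0.91 and Cdk4 at -0.32 and -0.32.

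The inhibitor genes went separate ways. Cdkn1a (chr17:29090979-29100722), which encodes p21, stood at 285, 271, 272 and 285 CPM at 0 h, 464, 472, 493 and 499 at 1 h and 555, 563, 584 and 538 at 5 h in the GFP-labelled line. In the Nur77-labelled line it stood at 179, 188, 181 and 176 CPM at 0 h, 410.1, 408, 398 and 394 at 1 h and 337, 349, 360.1 and 352 at 5 h. None of these 6 groups overlapped another within a line, or its counterpart in the other line. The rise at 5 h was 1.01 (SE 0.05, edgeR adjusted p = 4.44e-16) and 0.95 (SE 0.05, edgeR adjusted p = 1.97e-15). Cdkn1b, which encodes p27, fell by 0.51 and 0.55 on the log2 scale, and in the Nur77-labelled line its 0 h and 5 h libraries overlapped.

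**Figure D2:**
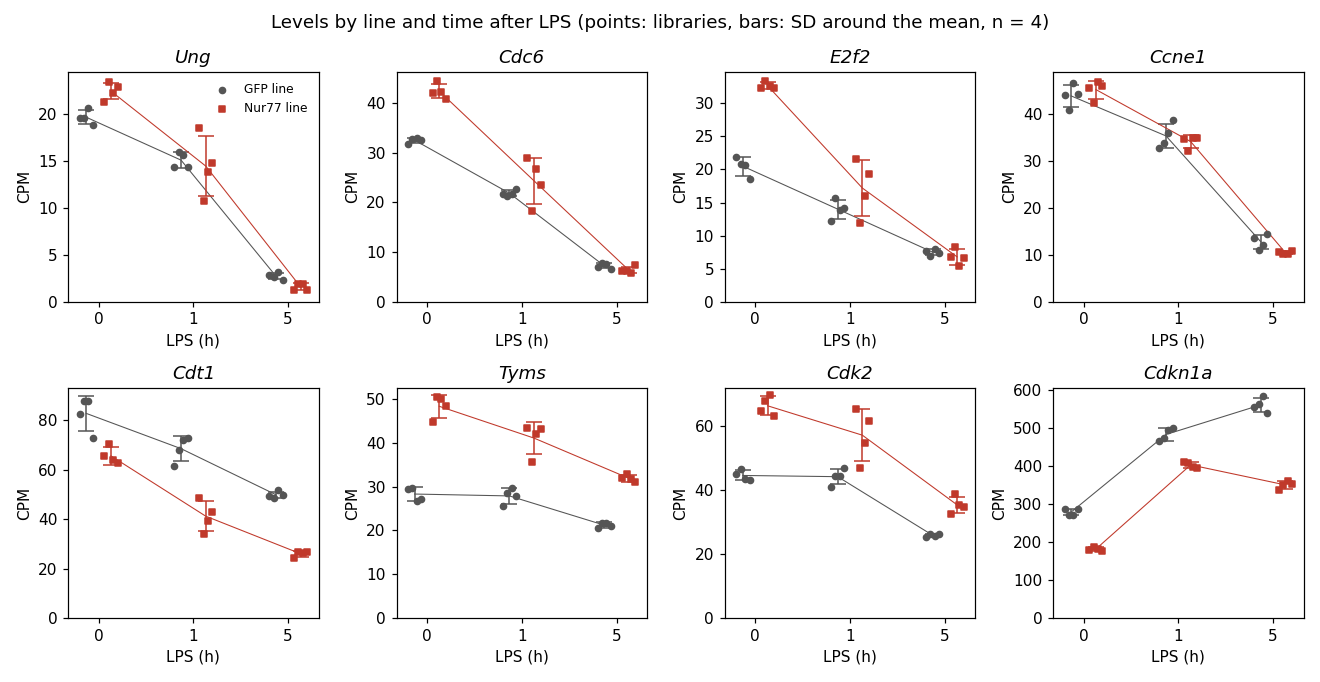
CPM of 8 genes (vertical axes, from 0) at 0, 1 and 5 h of LPS (horizontal axes), with a point for each library, lines through the group means and bars for the SD around the mean of 4 libraries. Ung, Cdc6, E2f2 and Ccne1 descend in both lines, the lines stay apart for Cdt1, Tyms and Cdk2, and Cdkn1a is higher at 1 h and at 5 h than at 0 h in both lines, from a lower start in the Nur77-labelled line.

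Groups at 5 h and 0 h did not overlap for 42 of the 43 genes in each line, the exceptions being Orc1 in the GFP-labelled line and Cdkn1b in the Nur77-labelled line. The share of all genes without such overlap was not computed. At 5 h 62.6% and 66.6% of all genes were called in the GFP-labelled and Nur77-labelled lines. The order of the falls was alike: across the 43 genes Pearson's r between the lines was 0.970 and Spearman's rho 0.964, and r was 0.948 over the 41 genes left without Cdkn1a and Ung. Genes are not independent replicates, and the groups in each line share their fit, so no p is attached. Without replicate 2 of the Nur77-labelled line at 1 h, the counts were 41 and 42 falls and 1 rise in each line, as with it. No omission of a library changed the number of genes called at 5 h in either line.

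**Figure D3:**
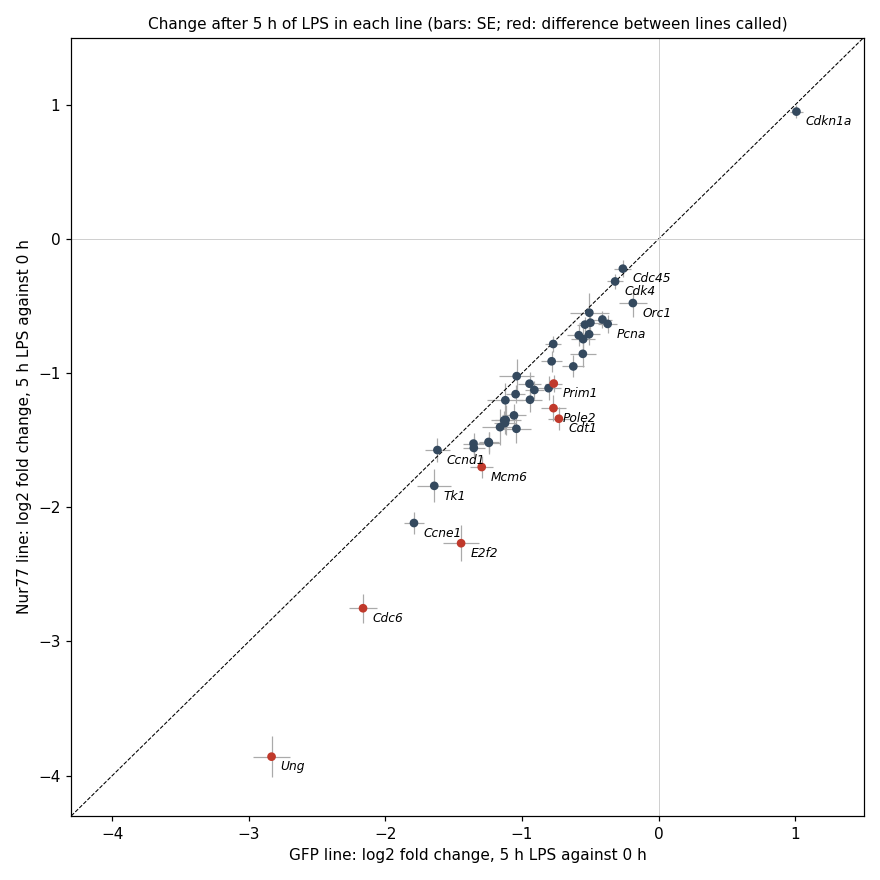
Log2 fold change after 5 h of LPS in the GFP-labelled line (horizontal) and in the Nur77-labelled line (vertical), 1 point a gene with bars for the SE and a dashed line of equal change. Of the 42 genes besides Cdkn1a, 38 had the larger fall in the Nur77-labelled line, and the 7 red points are genes whose difference between the lines passed the test.

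Most genes of the related lists outside the 43 also fell at 5 h, set against the 31.9% and 34.1% of all genes that fell in the GFP-labelled and Nur77-labelled lines. Of 20 other licensing, firing and fork genes, 14 fell and 3 rose in each line at 5 h (medians -0.56 and -0.55), with Gmnn, the inhibitor of Cdt1, at -1.74 and -1.79 and the fork genes Wdhd1 and Clspn at -1.81 and -1.72 in the GFP-labelled line. Of 20 other polymerase, clamp loader and lagging-strand genes, 16 and 17 fell and 1 rose in each line, with the maintenance methyltransferase gene Dnmt1 at -1.55 in the GFP-labelled line. Of 12 other nucleotide supply genes, 9 and 7 fell and 1 rose, with Dut, whose enzyme keeps uracil out of DNA, at -1.07 in the GFP-labelled line. Of 25 tested G1/S regulators, 18 and 19 fell and 5 rose in each line. The growth regulator Myc rose most, by 5.84 and 5.33 on the log2 scale, while the kinase inhibitor gene Cdkn2c fell by 1.65 and Mybl2 by 1.19 in the GFP-labelled line. Of 32 genes of G2 and mitosis, 30 fell and none rose in each line, with medians of -0.54 and -0.63.

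Nearly all members fell whether or not their window held the E2F letters, so their counts cannot compare the 2 kinds of window. Among members with a promoter window, 14 of the 15 with the E2F letters and 21 of 22 without them fell in the GFP-labelled line, with medians of -0.81 and -0.68. In the Nur77-labelled line 15 of 15 and 21 of 22 fell, with medians of -1.31 and -0.94. Over genes outside the 43, 39.35% of 460 with the letters and 31.4% of 9222 without them fell in the GFP-labelled line, and 44.8% and 33.5% in the Nur77-labelled line. These shares are given without a test.

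At 1 h of LPS the program had begun to change in only part of its genes. In the GFP-labelled line 9 of the 43 fell and 2 rose, where 7.63% of all genes fell and 9.74% rose (17.4% called). In the Nur77-labelled line 20 fell and 3 rose, where 21.8% of all genes fell and 22.5% rose (44.3% called). Scaled by total counts alone, 13 fell and 1 rose in the GFP-labelled line and 36 fell and 1 rose in the Nur77-labelled line. That scaling moved the median of all genes from -0.01 to -0.12 and from -0.02 to -0.22. The counts under it therefore do not set the 43 genes apart from all genes, whose share called with that scaling is not given here.

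Cdc6 and E2f2 led the early falls in both lines. The log2 fold change of Cdc6, whose libraries are given above, was -0.57 (edgeR adjusted p = 4.98e-05) in the GFP-labelled line and -0.79 (edgeR adjusted p = 1.63e-07) in the Nur77-labelled line. That of E2f2 was -0.53 (edgeR adjusted p = 0.00376) and -0.92 (edgeR adjusted p = 1.29e-06). For both genes no 1 h library overlapped the 0 h libraries of its line. Replicate 2 was the lowest 1 h library of the Nur77-labelled line for both, and for Rpa2 and Tk1 below. The changes given for these genes include it.

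Rpa2 was called in both lines too. Its CPM were 48.02, 49.6, 49.3 and 40.8 at 0 h and 34.6, 37.3, 36.4 and 35.2 at 1 h in the GFP-labelled line. Nur77-labelled libraries held 51.3, 52.3, 57.6 and 54.3 at 0 h and 41.1, 23.4, 31.1 and 30.6 at 1 h. Neither pair of groups overlapped, and the changes were -0.38 (edgeR adjusted p = 0.0128) and -0.76 (edgeR adjusted p = 2.87e-06). Tk1 fell by 0.70 on the log2 scale in the Nur77-labelled line (edgeR adjusted p = 3.18e-05). In the GFP-labelled line it was at 44.6, 43.1, 50.1 and 43.2 CPM at 1 h, which overlapped the 0 h libraries, and the change of -0.19 did not pass the test (edgeR adjusted p = 0.329). Cdkn1b was at 20.2, 25.4, 20.6 and 31.1 CPM at 0 h and 17.5, 19.98, 18.9 and 16.1 at 1 h in the GFP-labelled line, apart but with a wide spread at 0 h. Its change of -0.43 was called (edgeR adjusted p = 0.0429), and the call was lost in 13 of the 24 fits that each left out a library.

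Cdkn1a had risen by 1 h in both lines, by 0.79 (edgeR adjusted p = 2.37e-13) and 1.15 (edgeR adjusted p = 8.66e-17). Cdc45 was the only one of the 4 firing genes called higher at 1 h, in either line. It stood at 42.02, 38.6, 38.7 and 40.03 CPM at 0 h and 44.3, 45.3, 45.5 and 45.4 at 1 h in the GFP-labelled line. The other line held 50.1, 46.96, 46.4 and 47.4 CPM at 0 h and 56.5, 63.5, 67.1 and 53.2 at 1 h. The groups did not overlap in either line, with changes of 0.18 (edgeR adjusted p = 0.0452) and 0.34 (edgeR adjusted p = 0.000108). With total-count scaling neither passed, at 0.08 and 0.13 (edgeR adjusted p = 0.353 and 0.0608), and the call in the GFP-labelled line was lost in 13 of 24 fits that left out a library.

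Orc1 rose in the Nur77-labelled line, from 15.4, 17.03, 14.3 and 16.9 CPM at 0 h to 19.7, 16.2, 20.2 and 19.7 at 1 h. The groups overlapped through replicate 2, the change was 0.25 (edgeR adjusted p = 0.0458), and 10 of 24 such fits lost the call. In the GFP-labelled line the change of 0.22 did not pass (edgeR adjusted p = 0.159). The count of 11 calls in the GFP-labelled line fell to 7 without replicate 2 or replicate 3 at 0 h, to 5 without replicate 1 at 1 h and to 7 without replicate 4 at 1 h. It rose to 15 (2 higher, 13 lower) without replicate 2 of the Nur77-labelled line at 1 h. In these 5 fits 14.4%, 14.6%, 14.3%, 15.6% and 21.5% of all genes were called. The count of 23 in the Nur77-labelled line was 15 without replicate 3 at 0 h and 18 without replicate 2 at 1 h, where 37.4% and 38.2% of all genes were called. Without that replicate 2 the falls of Mcm6, Rfc5, Rrm2, Chaf1a and Cdk2 no longer passed, and that of Ccnd1 went from -0.22 to -0.40 (edgeR adjusted p = 1.76e-08).

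Before LPS most of the 43 genes were higher in the Nur77-labelled line. At 0 h 26 were higher and 3 lower, where 20.2% of all genes were higher and 19.7% lower (39.8% called). The median log2 difference was 0.27, against 0.02 over all genes tested. Higher genes came from each role except the inhibitors: 8 of 10 licensing, 3 of 4 firing, 7 of 12 synthesis, 3 of 5 nucleotide and uracil repair, 2 of 3 chromatin genes, and 3 of 7 cyclin, kinase and E2F genes. The libraries of the lines did not overlap for 33 genes, a count for which the share over all genes was not computed. Leaving out replicate 2 of the Nur77-labelled line at 1 h, which shares the estimate of spread, gave 30 higher and 3 lower, where 44.5% of all genes were called.

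Tyms (chr5:30038546-30073645) had the largest difference. It was at 29.5, 29.8, 26.9 and 27.2 CPM in the GFP-labelled line and 44.7, 50.5, 50.00 and 48.4 CPM in the Nur77-labelled line. With a log2 difference of 0.78 (SE 0.07, edgeR adjusted p = 6.43e-10), the groups did not overlap. E2f2 differed by 0.68 (SE 0.12, edgeR adjusted p = 7.06e-05), on the 0 h libraries given above. Cdk2 (chr10:128697938-128705051) was at 45.1, 46.4, 43.3 and 43.1 CPM against 64.7, 67.6, 69.5 and 62.97 CPM. Its difference of 0.58 (edgeR adjusted p = 9.05e-07) again left no overlap. Ccne2 was at 28.3, 32.6, 26.5 and 42.1 CPM against 44.1, 46.6, 44.8 and 57.97 CPM. Replicate 4 was the highest library of both groups for Ccne2, and the difference was 0.58 (edgeR adjusted p = 0.000805).

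Cdkn1a, Cdt1 and Rrm2 were lower instead. The Cdkn1a libraries above gave -0.62 (SE 0.05, edgeR adjusted p = 4.13e-11). Cdt1 (chr8:122568015-122573130) was at 82.6, 87.8, 87.97 and 73.1 CPM in the GFP-labelled line and 65.7, 70.6, 63.8 and 62.6 CPM in the Nur77-labelled line, a difference of -0.34 (edgeR adjusted p = 0.00172). Rrm2 was at 251, 255, 266 and 244 CPM against 217, 218, 219 and 209 CPM, a difference of -0.23 (edgeR adjusted p = 0.0056). None of these 3 genes overlapped between the lines, and the Rrm2 call was lost with total-count scaling, at -0.18 (edgeR adjusted p = 0.0722). Ccne1, E2f1 and Cdk4 gave values near 0 (0.04, 0.01 and 0.02) and did not pass the test.

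Fewer of the genes were called once LPS was present, a change in count that was not tested as such. At 1 h 15 genes were higher and 4 lower in the Nur77-labelled line, where 26.5% of all genes were higher and 24.8% lower (51.2% called), and the median was 0.14. Without replicate 2 of the Nur77-labelled line at 1 h, 25 were higher and 3 lower, where 50.9% of all genes were called. At 5 h 12 were higher and 7 lower, where 21.9% and 24.4% of all genes were (46.4% called), and the median was 0.09. Without that library the 5 h counts were 16 higher and 11 lower, where 51.3% of all genes were called.

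The 1 h differences were led by other genes in part. Ccne2 was at 29.97, 31.8, 25.8 and 27.6 CPM in the GFP-labelled line and 45.6, 50.4, 60.98 and 56.8 CPM in the Nur77-labelled line, a difference of 0.89 (edgeR adjusted p = 4.42e-06). Gins1 was at 15.5, 17.5, 17.8 and 18.9 CPM against 28.9, 24.6, 26.8 and 27.6 CPM, a difference of 0.62 (edgeR adjusted p = 8.67e-07). For Gins1 the table's less abundant transcript held a mean 0.439 of that of the one used, the lowest such ratio among the 43 genes. Tyms was at 25.5, 28.6, 29.6 and 27.9 CPM against 43.5, 35.7, 42.1 and 43.2 CPM, a difference of 0.56 (edgeR adjusted p = 2.3e-07). Prim1 was at 39.2, 41.01, 38.9 and 39.4 CPM against 56.8, 51.3, 59.5 and 56.8 CPM, a difference of 0.50 (edgeR adjusted p = 3.61e-07). All 4 were free of overlap between the lines.

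Lower in the Nur77-labelled line at 1 h were Cdt1, Rrm2, Cdkn1a and Pole2. Cdt1 was at 61.4, 68.1, 72.1 and 72.7 CPM against 48.7, 33.99, 39.3 and 42.9 CPM, a difference of -0.73 (edgeR adjusted p = 7.84e-08). Rrm2 was at 265, 240.3, 267 and 252 CPM against 211, 159, 183 and 197 CPM, a difference of -0.45 (edgeR adjusted p = 4e-06). Cdkn1a differed by -0.26 (edgeR adjusted p = 3.77e-05), less than at 0 h. Pole2 was at 27.6, 30.1, 29.4 and 25.5 CPM against 25.6, 18.7, 25.6 and 24.7 CPM, and these groups overlapped. Its difference of -0.25 (edgeR adjusted p = 0.0236) was lost without replicate 2 of the Nur77-labelled line (-0.15, edgeR adjusted p = 0.104) and without replicate 2 or replicate 3 of the GFP-labelled line at 1 h (edgeR adjusted p = 0.0829 and 0.0613).

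At 5 h the higher group was led by Tyms, Cdk2, Mcm3 and Gins1. Tyms was at 20.5, 21.8, 21.7 and 20.9 CPM in the GFP-labelled line against 32.01, 32.96, 31.8 and 31.1 CPM in the Nur77-labelled line, a difference of 0.59 (edgeR adjusted p = 9.72e-08). Cdk2 was at 25.4, 26.2, 25.5 and 26.1 CPM against 32.6, 38.6, 35.2 and 34.7 CPM, a difference of 0.45 (edgeR adjusted p = 4.36e-05). Mcm3 was at 95.1, 97.7, 97.6 and 98.1 CPM against 117, 131, 131 and 125 CPM, a difference of 0.37 (edgeR adjusted p = 6.51e-06). These 3 genes and Gins1 showed no overlap. Gins1 was at 8.99, 9.97, 10.1 and 9.57 CPM against 13.3, 12.02, 12.5 and 11.9 CPM, a difference of 0.36 (edgeR adjusted p = 0.00147).

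The lower group at 5 h held Cdt1, Ung, Cdkn1a, Pole2, Rrm2, Ccne1 and E2f1. Cdt1 was at 49.4, 48.7, 51.7 and 49.9 CPM against 24.3, 26.7, 26.2 and 26.9 CPM, a difference of -0.94 (edgeR adjusted p = 1.45e-09). Pole2 was at 15.5, 15.4, 15.3 and 16.1 CPM against 11.2, 9.21, 11.1 and 9.20 CPM, a difference of -0.60 (edgeR adjusted p = 1.68e-05). Neither overlapped between the lines. Ung and Cdkn1a differed by -0.83 (edgeR adjusted p = 0.000739) and -0.68 (edgeR adjusted p = 4.57e-12), on the 5 h libraries above. Rrm2, Ccne1 and E2f1 differed by -0.46, -0.28 and -0.25.

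**Figure D4:**
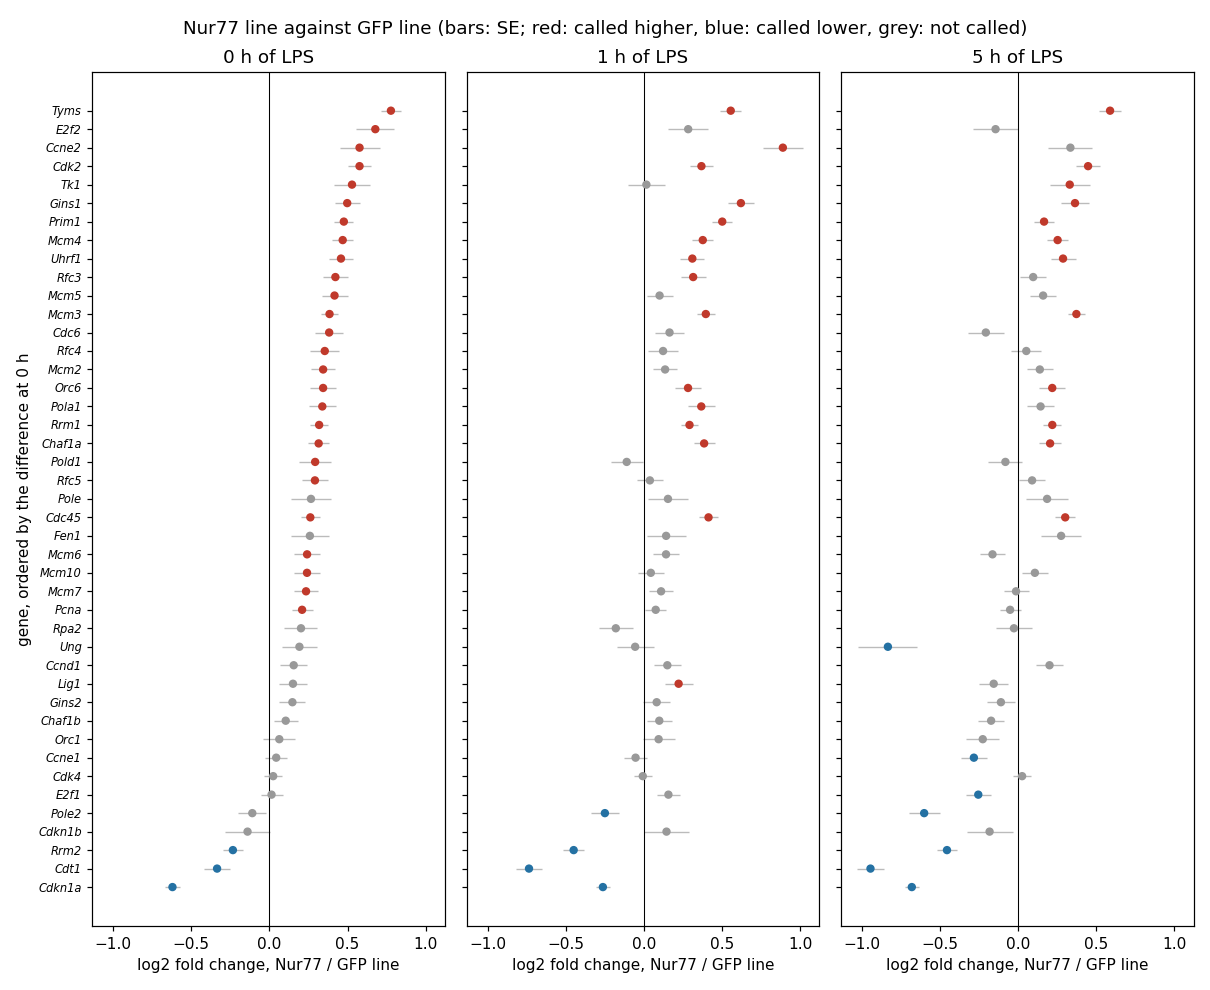
Log2 fold change of the Nur77-labelled line over the GFP-labelled line (horizontal) for the 43 genes (rows, ordered by the value at 0 h) at 0, 1 and 5 h of LPS, with bars for the SE. Genes called higher number 26, 15 and 12 and genes called lower number 3, 4 and 7 in the successive panels.

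By persistence, 11 genes were called higher in the Nur77-labelled line at 0, 1 and 5 h: Cdc45, Cdk2, Chaf1a, Gins1, Mcm3, Mcm4, Orc6, Prim1, Rrm1, Tyms and Uhrf1. In the fit of all 24 libraries another 11 were called higher at 0 h alone: Cdc6, E2f2, Mcm2, Mcm5, Mcm6, Mcm7, Mcm10, Pcna, Pold1, Rfc4 and Rfc5. The shares of all genes with such courses were not computed. In that fit the MCM helicase genes are divided between these sets. Cdc6, E2f2, Mcm2, Mcm5, Mcm6, Mcm7 and Rfc4 did not keep to the second set when a library was left out. They were called higher at 1 h in 1 or 2 of the 24 such fits. At 5 h Mcm2 and Mcm5 were called higher in 1 such fit, and Cdc6 and Mcm6 were called lower in 1. Without replicate 2 of the Nur77-labelled line at 1 h, 25 genes rather than 15 were called higher at 1 h, where 50.9% of all genes were called. Cdkn1a, Cdt1 and Rrm2 were called lower at all 3 times. The calls at 0 h of Mcm6, Mcm7, Mcm10, Pcna and Pold1, and those at 5 h of Orc6, Prim1, Tk1 and Chaf1a, were lost in 2 to 5 of the 24 fits that left out a library.

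Several measurements moved with the lines. Rrm2 and Pole2 lie on chromosome 12, at chr12:24708254-24714146 and chr12:69201773-69228205. Of 435 genes tested on that chromosome 65.5%, 63.7% and 68.7% were lower in the Nur77-labelled line at 0, 1 and 5 h, with medians of -0.41, -0.44 and -0.46. Elsewhere 17.9%, 23.3% and 22.8% of 11743 genes placed on other chromosomes were lower. The part of this difference, and of the macrophage marker levels given above, in the results on these genes was not tested. Of the 32 genes of G2 and mitosis, 29 were higher at 0 h, 26 at 1 h and 29 at 5 h, with 1 lower at 1 h and medians of 0.47, 0.38 and 0.40. Over all genes tested 20.2%, 26.5% and 21.9% were higher at these times. At 5 h the median of the 43 genes was 0.09, and the contrast of the lists was not tested.

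Other pathway genes were also higher at 0 h, where 20.2% of all genes tested were higher and 19.7% lower. Of 20 further licensing and fork genes 15 were higher and none lower, with Donson at 0.60 and Tipin at 0.59. Of 20 further synthesis genes 13 were higher and none lower, and of 12 nucleotide supply genes 8 were higher and 1 lower. Of 25 G1/S regulators 17 were higher and 1 lower, led by the repressor E2f7 at 1.13 and the pocket protein gene Rbl1 at 0.78, with the ubiquitin ligase gene Fbxw7 at -0.60. Targets of p53 outside the 43, chosen because Cdkn1a is one, gave 11 lower and none higher of 15, with Eda2r at -1.40, Trp53inp1 at -1.75 and Mdm2 at -0.52. At 1 h none of the 15 were higher and 8 were lower, against 26.5% and 24.8% of all genes. At 5 h 3 of the 15 were higher and 6 lower, against 21.9% and 24.4% of all genes.

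The response to LPS itself differed between the lines for few of the 43. At 5 h the difference of the 2 responses passed the test for 7 genes, all with the larger fall in the Nur77-labelled line, where 5.13% of all genes differed in that direction and 2.81% in the other (7.94% called). The difference was -1.02 for Ung (SE 0.22, edgeR adjusted p = 0.00342), -0.82 for E2f2 (SE 0.19, edgeR adjusted p = 0.00637), -0.61 for Cdt1 (SE 0.12, edgeR adjusted p = 0.00131) and -0.59 for Cdc6 (SE 0.15, edgeR adjusted p = 0.0122). Smaller differences were called for Pole2 (-0.49), Mcm6 (-0.40) and Prim1 (-0.31). The 7 genes did not share one course. E2f2, Cdc6, Mcm6 and Prim1 started higher in the Nur77-labelled line, Cdt1 started lower, and Ung and Pole2 did not pass the test at 0 h.

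The E2F letters were in the promoter windows of 5 of these 7, E2f2, Cdt1, Cdc6, Pole2 and Mcm6, and in those of 10 of the 30 other genes with a window. Outside the 43, 5.43% of genes with the letters and 4.98% of genes without them had a called larger fall in the Nur77-labelled line. The calls of Mcm6, Prim1 and Pole2 were lost in 10, 7 and 3 of the 24 fits that left out a library, while those of Ung, E2f2, Cdt1 and Cdc6 were kept in all 24. The count of 7 became 18 without replicate 2 of the Nur77-labelled line at 1 h and 4 without replicate 3 of that line at 0 h, where 13.6% and 6.07% of all genes were called. For the kinase genes Cdk4 and Cdk2 the differences were 0.00 and -0.13, and for Ccnd1 0.05, none past the test.

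At 1 h a single gene differed in its response, where 0.63% of all genes differed in that direction and 0.549% in the other (1.18% called). Cdkn1a rose more in the Nur77-labelled line, by 0.36 (SE 0.06, edgeR adjusted p = 0.00315), from its lower start. With total-count scaling the difference was 0.26 (edgeR adjusted p = 0.0511). The count was 9 without replicate 1 and 3 without replicate 4 of the Nur77-labelled line at 1 h, where the share of all genes called went from 1.18% to 12.9% and 4.93%. It stayed at 1 without replicate 2, with 1.79% of all genes called. By 5 h the difference for Cdkn1a was -0.06 and did not pass (edgeR adjusted p = 0.648).

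Levels between genes can be compared per kilobase of transcript for the 42 genes with a known length. On that scale Pcna was the most abundant at 0 h, at 168 CPM per kilobase in the GFP-labelled line and 194 in the Nur77-labelled line. At 5 h Cdkn1a was, at 293 and 183. The median over the 42 was 25.2 and 29.1 CPM per kilobase at 0 h and 13.1 and 14.5 at 5 h, and Ung was then the least abundant at 1.37 and 0.796.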

How the data were processed

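Poly(A) RNA of 24 RAW 264.7 libraries (KAPA mRNA HyperPrep, per the labels' protocols) was quantified by the authors. Reads were processed with CASAVA 1.8.2 and HISAT2 2.1.0 on mm10, per the submitters' processing notes, while the counter, its strand setting and its annotation were not given in the sources used here. Raw estimated counts per RefSeq transcript were deposited by the authors in steps of 0.5, with 53.7% of the values above 0 whole. Before testing they were rounded to the nearest whole number, and up from the midpoint.

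The 42361 transcripts were named from RefSeq (42203) or GENCODE (65). The other 93 kept their identifiers and held 0.496% of counts. For each gene the most abundant transcript by its mean was kept, which left 25160 genes. Of the 43 genes, 20 had several transcripts. For Cdc6 and Tyms the transcript kept is listed in RefSeq as non-coding. The least abundant transcript of these genes held a mean 0.985 and 0.993 of that of the one kept. No column of the table was left unused.

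One edgeR 4.0.16 (R 4.3.3) quasi-likelihood model over the 6 groups, with TMM factors (0.896 to 1.14), filterByExpr and 18 residual degrees of freedom, tested 12213 genes in each contrast, with Benjamini-Hochberg adjustment and a threshold of 0.05. The common biological coefficient of variation was 0.0978, and library totals had a median of 15014041. CPM use TMM-scaled totals. Fold changes are on the log2 scale of the model. On simulated data for the lines at 0 h, with 12003 genes run, 74.6%, 92.5% and 97% of genes changed by 1.5, 2 and 4 times were recovered, with 9 false calls.

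The members and lists were chosen with earlier results of these data known. Every library's value is given for the called genes with the largest change in a comparison, up to 4 in each direction, and of each other list up to 4 genes with the smallest adjusted p could be named. Alternatives were other scalings (total counts, DESeq2 size factors), other filters, the mean over transcripts, a fit of the groups compared alone, DESeq2 1.42.0, leaving out each library in turn, and a replicate block. The deviations of same-numbered libraries from their group means correlated at -0.293 to 0.17 over 60 pairs, and 8 were over 0.1. Between the lines at 0 h 3 of the 4 pairs were over 0.1 (0.137, 0.17 and 0.146) and the other was at -0.0119. The main fit did not pair libraries by number, and whether same-numbered libraries at 0 h shared a batch was not tested. Counts with the replicate block are given below.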

Additional observations from a re-analysis of the deposited data

Results flagged for a closer look

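Among 258 sets of 4 libraries (43 genes in 6 groups), 12 held a library set apart from the other 3 by more than Dixon's 95% critical value, which is 4.65%, and chance gives about 1 in 20. Of these, 6 fell in replicate 2 of the Nur77-labelled line at 1 h: Mcm6 at 169.6 CPM, Mcm7 at 105.1, Orc1 at 16.2, Pole2 at 18.7 and Ccne1 at 32.0 were low, and Ccnd1 at 605 was high. At 0 h in the same line, replicate 3 was apart for Mcm6 at 279 CPM and Mcm7 at 164, and replicate 1 for Pole at 126. Single libraries were also apart for Pcna at 178 CPM (Nur77-labelled, 5 h, replicate 1), Cdc45 at 44.3 (GFP-labelled, 1 h, replicate 1) and Chaf1b at 45.8 (GFP-labelled, 0 h, replicate 1).

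The response to LPS differed between the lines, by the test of the difference itself, for 8 genes. At 1 h the log2 difference (Nur77-labelled minus GFP-labelled) was 0.36 for Cdkn1a. At 5 h it was -1.02 for Ung, -0.82 for E2f2, -0.61 for Cdt1, -0.59 for Cdc6, -0.49 for Pole2, -0.40 for Mcm6 and -0.31 for Prim1.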

How the results depend on the processing

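Of the values of single genes under the alternatives, 12047 kept their side of the threshold, 123 came to pass it and 214 no longer did. No value called in either fit changed sign, while the sign of values called in neither was not counted. The 5 h response kept 42 calls of 43 in the GFP-labelled line and 43 of 43 in the Nur77-labelled line in every fit that left out a library. Over those fits the counts of genes called were 25 to 33 between the lines at 0 h, 17 to 28 at 1 h and 15 to 27 at 5 h, 5 to 15 and 15 to 23 for 1 h of LPS in the GFP-labelled and Nur77-labelled lines, and 1 to 9 and 4 to 18 for the difference between the lines at 1 h and 5 h. With only the groups compared in the fit, the count between the lines at 5 h went from 19 to 29, that for 1 h of LPS in the Nur77-labelled line from 23 to 11, and that for the difference at 5 h from 7 to 18. With total counts in place of TMM, 37 genes were called at 1 h in the Nur77-labelled line and 0 for the difference at 1 h, for which DESeq2 called 2; that scaling moved the median of all genes to -0.27 and -0.34 at 5 h in the GFP-labelled and Nur77-labelled lines, and brought Orc1 in the GFP-labelled line past the threshold (-0.44, edgeR adjusted p = 0.000775). The cause of these changes was not tested. Counts in this paragraph stand without the share of all genes called in the same fit, so they do not set the 43 genes apart. That share moved as well: between the lines at 5 h it went from 46.4% to 51.3% without replicate 2 of the Nur77-labelled line at 1 h. With the replicate block the counts were 29, 19 and 19 between the lines, 9 and 42 in the GFP-labelled line, 21 and 43 in the Nur77-labelled line, and 1 and 8 for the difference, so that 2 single-gene values came to pass the threshold and 5 no longer did. Of 60 same-numbered pairs 12 correlated best with their own number, among them 3 of the 4 between the lines at 0 h. At 5 h Ung rests on 14 to 69 counts a library, which limits the precision of its fold change.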
